A study of Mus musculus with 60 samples.

Results

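Imprinted genes were followed across mouse embryonic stem (ES) cell lines. The long noncoding RNA Lnc956 was knocked down or knocked out in some lines. The tumour suppressor P53 was knocked down in others, alone or with Lnc956 knockout. The 37 genes were taken by symbol and not by a cut on their values, although earlier results of these data were known. They lie in 19 imprinted loci. Of them, 22 are classed as expressed from the paternal allele and 13 from the maternal allele. Gnas and Inpp5f were put in neither class, since their imprinting depends on tissue or transcript. The classes are not particular to ES cells, and the allele used in these cells was not measured. All 37 have a row in both expression tables, of 24206 symbols analysed in a first set and 24314 in a time course. Genes at 1 FPKM (a fragment count divided by transcript length and library size) or more in at least 2 libraries were tested, which took 31 of the 37 in the first set and 32 in the time course. Rtl1, Usp29, Asb4, Kcnq1ot1 and Rasgrf1 fell below that filter in both sets, and Magel2 in the first set only. The highest value of those 5 in any library was 0.88 FPKM, for Asb4.

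An imprinted gene is expressed from the copy inherited from 1 parent. DNA methylation laid down in egg or sperm at a control region of the locus marks the copy of 1 parent, be it the expressed or the silent copy. Maternally and paternally expressed genes usually lie side by side and answer to the same control region, as H19 and Igf2 do. Mouse ES cells in culture are known to gain or lose such marks, so that lines and clones of the same strain can differ in the level of an imprinted locus. An FPKM value sums both alleles, so a level says nothing of which parental copy was read.

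The first set held 8 RNA libraries, 2 each of wild type (WT) and Lnc956 knockdown ES cells, untreated or given 10 µM etoposide, an inhibitor of topoisomerase II that leaves DNA double-strand breaks; its duration is not given in the labels. The time course held 28 libraries, 2 per group: WT at 6 h and 9 h of etoposide, and the Lnc956 knockout, P53 knockdown and combined (Lnc956 knockout and P53 knockdown) lines at 0, 3, 6 and 9 h. The time-course dose is labelled 1 µM, except in 4 libraries labelled 10 µM (Lnc956 knockout 3 h replicate 2 and 6 h replicate 1, P53 knockdown 6 h replicate 1, combined loss 9 h replicate 2). Chromatin immunoprecipitation (ChIP) peak lists covered P53 in WT and Lnc956 knockdown cells, and the pluripotency factor KLF4 in WT, in Lnc956 knockout, and in knockout cells overexpressing full-length Lnc956 or a form lacking an internal stretch, each untreated or given 10 µM etoposide (for 3 h in the KLF4 experiments), with 2 libraries a group. The ES line, its sex, the means of knockdown and the number of clones are not given, and nothing says that replicates were separate cultures, so a p-value here covers the spread of the libraries at hand, technical or not. Read totals are not given either, so the depth is unknown; the libraries held from 11245 to 12858 genes at 1 FPKM or more.

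All 15 ES cell markers were detected in every group, with the pluripotency factor Pou5f1 between 616 and 1487 FPKM. Their median was 43.8 FPKM in WT at 6 and 9 h and 118 in the 24 other time-course libraries. The sums of the 15 overlapped there (5307 to 7916 against 3652 to 7802 FPKM). In the first set the median was 173 FPKM untreated and 50.2 after etoposide in WT, and 102 and 111.5 in the Lnc956 knockdown. Trp53, the gene of P53, was at 61.8 to 111.5 FPKM in the P53 knockdown and 52.5 to 66.2 in the combined line, against 183 to 234 in WT at 6 and 9 h. The level of Lnc956 was not analysed here. Libraries stood apart in ways that the labels do not give. The 22 fibroblast and feeder-cell markers summed to 201 to 257 FPKM in the 4 WT time-course libraries, 1 of the 22 being at 0, against 838 to 2040 in the 24 others. In the first set the same sum was 1217 to 1328 FPKM untreated and 447 to 460 after etoposide. The 4 Y-linked genes summed to 0 in the WT time-course libraries, to 0.0563 to 0.408 FPKM in the knockout at 0 and 3 h and 2.17 to 3.41 at 6 and 9 h, and to 52.0 to 54.9 in the P53 knockdown at 0 and 3 h and 7.07 to 8.57 at 6 and 9 h. They summed to 3.80 to 4.36 FPKM in the untreated and 36.7 to 44.8 in the etoposide libraries of the first set. The 10 trophectoderm markers summed to 29.1 to 36.3 FPKM in the early (0 and 3 h) and 84.4 to 127 in the late (6 and 9 h) knockout, 88.7 to 175 and 212 to 265 in the P53 knockdown, 254 to 295 and 269 to 308 in the combined line, and 51.6 to 56.55 in WT, with none at 0 in any of these sets; 1 of them, Ascl2, is itself imprinted. The 8 neural markers summed to 67.4 to 77.55 and 97.2 to 131 FPKM in the early and late knockout, 64.2 to 76.7 and 73.5 to 84.35 in the P53 knockdown, 38 to 47.15 and 48.2 to 72 in the combined line, and 84.3 to 98.2 in WT. In the first set the trophectoderm sum was 70.7 to 100.2 FPKM untreated and 42.6 to 47.2 after etoposide, and the neural sum 56.8 to 63.6 and 105 to 119. The 8 mesoderm markers summed to 8.64 to 13.95 FPKM in the WT time-course libraries and 1.28 to 7.69 in the 24 others, without overlap. For the 10 endoderm markers the sums overlapped, at 9.49 to 11.6 and 9.74 to 23.0. The part of these lists in the results was not tested. Culture, cell source, treatment and time cannot be told apart in these contrasts, and values within the 0 and 3 h or the 6 and 9 h libraries are given beside those over all times. In bulk RNA, fewer cells of a type and less RNA per cell cannot be told apart.

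Promoter windows were read from RefSeq (GRCm38.p6, the mm10 assembly), from 250 bases before to 50 after each annotated start, and were found for 30 of the 37 genes (48 windows of 300 bases). The windows held a median of 13 CpG dinucleotides, against 7 over all 32851 windows. The letters TGCCGC, the core recognised by the imprint-protecting zinc finger protein ZFP57 when methylated, occurred on either strand in 12 of the 48 windows (25.0%), belonging to 11 genes, against 11.6% of all windows. Of the KLF-family letters, GGGTGTG occurred in 3 windows (6.25%, against 7.95% of all) and GGGCGTG in 5 (10.4%, against 8.44%). The 2 differ in 1 letter and were counted separately, whether or not matches overlapped. Some windows overlap, such as those of Peg3 and Usp29 and 2 each of Mest and Gnas, so a match can be counted more than once. TGCCGC itself holds a CpG, and the windows compared were not matched for CpG content. The windows of Meg3, Mest and Peg3 are shown, since Meg3 differed most from WT, Mest rose most between untreated and etoposide libraries, and Peg3 carried the highest KLF4 peak over all KLF4 groups. Meg3 is at chr12:109540746-109541045 (plus strand), Mest at chr6:30737800-30738099 (plus strand) and Peg3 at chr7:6730370-6730669 (minus strand). Capitals mark TGCCGC, here as its reverse complement, in Meg3 and Mest, and GGGTGTG on either strand in Peg3. Each is printed 5′ to 3′ along the gene's strand. A match is a description of the letters and not a site.
Meg3: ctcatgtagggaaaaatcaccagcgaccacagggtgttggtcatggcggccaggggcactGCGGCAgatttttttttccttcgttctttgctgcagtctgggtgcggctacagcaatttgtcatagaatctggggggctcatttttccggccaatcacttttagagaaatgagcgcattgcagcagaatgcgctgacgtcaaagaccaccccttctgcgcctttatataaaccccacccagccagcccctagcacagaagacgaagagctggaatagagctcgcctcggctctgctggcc
Mest: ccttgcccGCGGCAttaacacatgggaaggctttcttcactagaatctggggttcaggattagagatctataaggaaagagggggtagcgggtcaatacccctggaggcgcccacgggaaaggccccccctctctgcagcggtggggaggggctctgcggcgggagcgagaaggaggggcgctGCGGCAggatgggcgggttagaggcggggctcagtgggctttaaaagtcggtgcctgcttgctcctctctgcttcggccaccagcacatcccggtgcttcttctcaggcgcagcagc
Peg3: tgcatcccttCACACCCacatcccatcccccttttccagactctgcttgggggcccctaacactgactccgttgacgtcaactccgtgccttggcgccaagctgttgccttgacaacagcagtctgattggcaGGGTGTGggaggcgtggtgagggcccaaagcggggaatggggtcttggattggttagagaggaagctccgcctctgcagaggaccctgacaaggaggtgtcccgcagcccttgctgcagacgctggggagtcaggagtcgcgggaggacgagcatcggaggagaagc
The Meg3 window holds 1 match, at position -190 from the start, and 13 CpG. The Mest window holds 2, at positions -242 and -67, and 17 CpG. The Peg3 window holds 2, at positions -240 and -117, and 13 CpG.

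**Figure D1:**
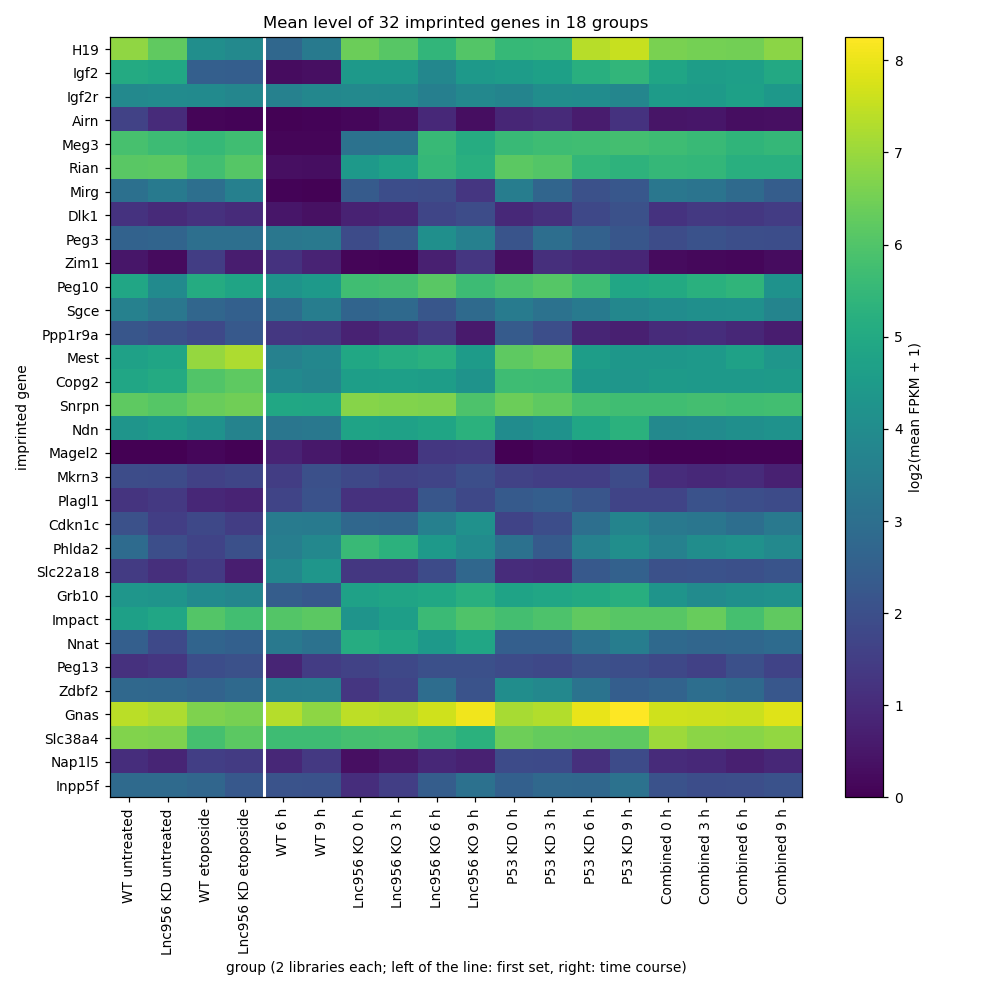
Mean level of the 32 imprinted genes that were tested, as log2(mean FPKM + 1) in colour, with genes in rows by locus and RNA groups in columns. The columns of WT at 6 and 9 h are dark (low) for Meg3, Rian, Mirg and Igf2, which are brighter in the other lines.

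The maternally expressed noncoding RNAs of the Dlk1-Meg3 locus were near 0 in the WT libraries of the time course and abundant in every other line. Meg3 (chr12:109540996-109571729) was at 0.0941 and 0.0732 FPKM in WT at 6 h and 0.0741 and 0.112 at 9 h. In the Lnc956 knockout it was at 41.3 and 50.5 FPKM at 6 h and 40.8 and 26.8 at 9 h, in the P53 knockdown at 54.2, 48.8, 51.3 and 57.7, and in the combined line at 47.4, 35.7, 47.8 and 40.6. The WT libraries did not overlap with any other, and over the mean of 6 and 9 h Meg3 was higher than WT by 5.20 ± 0.13 (SE) in the knockout, 5.63 ± 0.13 in the P53 knockdown and 5.32 ± 0.13 in the combined line, all as differences of log2(FPKM + 1). Calls here and below are by limma with Benjamini-Hochberg adjustment over all genes tested, at an adjusted p of 0.05. Meg3, and Rian, Mirg, Dlk1 and Igf2 below, reached 1 FPKM in none of these WT libraries. They entered the test only through the other lines, so no p-value against WT is given for them. Rian, a host of small nucleolar RNAs of the same strand, went with it: WT was at 0.307 and 0.222 FPKM at 6 h and 0.256 and 0.190 at 9 h, and the 24 other time-course libraries ran from 20.0 through a median of 41.4 to 78.1. Its log2 differences were 5.03 ± 0.09, 5.09 ± 0.09 and 4.88 ± 0.09. Mirg, a host of microRNAs, was at 0.111, 0, 0.0551 and 0 FPKM in WT and at 1.30 to 11.7 in the others, with log2 differences of 1.55 ± 0.15, 2.07 ± 0.15 and 2.55 ± 0.15.

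The WT cells of the first set were not low at this locus. There Meg3 was at 59.9 and 54.4 FPKM untreated and 45.8 and 43.8 after etoposide, and Rian at 69.8, 68.3, 53 and 52.3, although the tables were normalized separately and levels set across them were not tested. The low level was thus found in 4 libraries, all labelled WT and all treated. Columns headed as WT at 0 and 3 h match no labelled sample and were not used here. In these 4 libraries the fibroblast list and the Y-linked genes were also low, and the part of either in the Meg3 difference was not tested. The median of the 22 fibroblast genes was 0.363 FPKM in them and 18.3 in the 24 other libraries. The paternally expressed neighbour Dlk1, a surface protein of the Notch family, was low throughout, at 0.285 to 0.435 FPKM in WT, and the log2 differences were 1.39 ± 0.13, 1.47 ± 0.13 and 0.93 ± 0.13. Rtl1, a retrotransposon-derived gene whose exons overlap the Meg3 to Rian transcripts, stayed at 0.354 FPKM or less in every library.

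Within the Lnc956 knockout, Meg3 was not at 1 level: it was at 7.71 and 7.68 FPKM at 0 h and 7.34 and 8.28 at 3 h, against 26.8 to 50.5 at 6 and 9 h. The P53 knockdown was at 56.6 and 37.7 at 0 h and 51.0 and 49.6 at 3 h, and the combined line at 50.5, 51.6, 48.6 and 45.3, so the knockout libraries at 0 and 3 h lay below all other time-course libraries but WT. Over 4 times Meg3 was higher in the P53 knockdown than in the knockout by 1.46 ± 0.09 on the log2 scale, but by 2.49 ± 0.13 in the 0 and 3 h libraries and 0.43 ± 0.13 (adjusted p = 0.0092) in the 6 and 9 h libraries. In the combined line it was higher than in the knockout by 1.32 ± 0.09 over all times and by 2.51 ± 0.13 in the 0 and 3 h libraries, and was not called in the 6 and 9 h libraries. Rian showed the same split, at 20.0, 20.9, 24.8 and 25.8 FPKM in the early and 43.2, 44.3, 35.4 and 36.0 in the late knockout libraries.

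H19, a maternally expressed noncoding RNA, and Igf2, the paternally expressed fetal growth factor beside it on chromosome 7, were both higher than WT in the 3 other lines. H19 (chr7:142575530-142578146) was at 6.00 and 5.64 FPKM in WT at 6 h and 9.28 and 9.60 at 9 h. The knockout was at 42.5, 41.1, 62.3 and 68.8, the P53 knockdown at 164, 166, 189.8 and 189, and the combined line at 84.9, 93.9, 108 and 115 at 6 and 9 h. The 4 lines did not overlap at these times, in the order WT, knockout, combined line and P53 knockdown. The log2 differences from WT were 2.66 ± 0.13, 4.40 ± 0.13 and 3.58 ± 0.13 for the knockout, the P53 knockdown and the combined line. Igf2 (chr7:142650768-142666816) was at 0.165 and 0.245 FPKM in WT at 6 h and 0.215 and 0.304 at 9 h, and at 12.2 to 21.7 in the knockout, 16.0 to 42.5 in the P53 knockdown and 20.8 to 32 in the combined line over their 8 libraries each. Its log2 differences at 6 and 9 h were 3.82 ± 0.15, 5.01 ± 0.15 and 4.52 ± 0.15, in the same order of lines as H19. Both genes of this reciprocal pair were low in the same WT libraries.

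The order of H19 depended on time. At 0 h the knockout was at 90.3 and 77.8 FPKM and the P53 knockdown at 31.4 and 59.4, and at 3 h they were at 73.4 and 63.2 against 38.6 and 53.1. H19 was therefore lower in the P53 knockdown than in the knockout by 0.76 ± 0.13 on the log2 scale in the 0 and 3 h libraries (a difference of -0.76, adjusted p = 5.8e-05) and higher by 1.74 ± 0.13 in the 6 and 9 h libraries; the difference over 4 times, 0.49 ± 0.10, averages these. The 2 P53 knockdown replicates at 0 h also differed from each other, in H19 and in Igf2 (28.9 and 16.0 FPKM).

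Grb10, an adaptor that restrains insulin and growth factor signalling, was at 4.53 and 4.17 FPKM in WT at 6 h and 3.79 and 3.98 at 9 h. The knockout lay between 25.2 and 37 over its 8 libraries, the P53 knockdown between 24.2 and 36.2, and the combined line between 13.7 and 18.3. No library of the combined line overlapped with either single line, and its level lay between WT and both. Grb10 was higher than WT by 2.72 ± 0.09, 2.73 ± 0.09 and 1.79 ± 0.09 on the log2 scale. It was lower in the combined line than in the knockout by a log2 difference of -0.80 ± 0.06 and than in the P53 knockdown by -0.83 ± 0.06, with like values in the early (-0.67 and -0.71) and the late libraries (-0.93 and -0.94).

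Slc22a18, a membrane transporter gene of the Kcnq1ot1 domain, went the other way: WT was at 14.1 and 12.3 FPKM at 6 h and 19.7 and 18.5 at 9 h, and the 24 other time-course libraries reached at most 6.335. Its log2 differences from WT were -1.79 ± 0.20, -1.65 ± 0.20 and -1.99 ± 0.20. Of the 37, Cdkn1c, Phlda2 and Kcnq1ot1 lie in the same domain. Cdkn1c, an inhibitor of cyclin-dependent kinases, was at 9.28 to 10.4 FPKM in WT, and its log2 differences from WT were 0.46 ± 0.11 in the knockout, not called in the P53 knockdown and -0.27 ± 0.11 (adjusted p = 0.033) in the combined line. Phlda2, which restrains placental growth, was at 9.86 to 13.9 FPKM in WT and was called only in the knockout, at 0.51 ± 0.20 (adjusted p = 0.036); Kcnq1ot1, the paternal noncoding RNA that silences the domain in cis, stayed at 0.432 FPKM or less in every library.

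**Figure D2:**
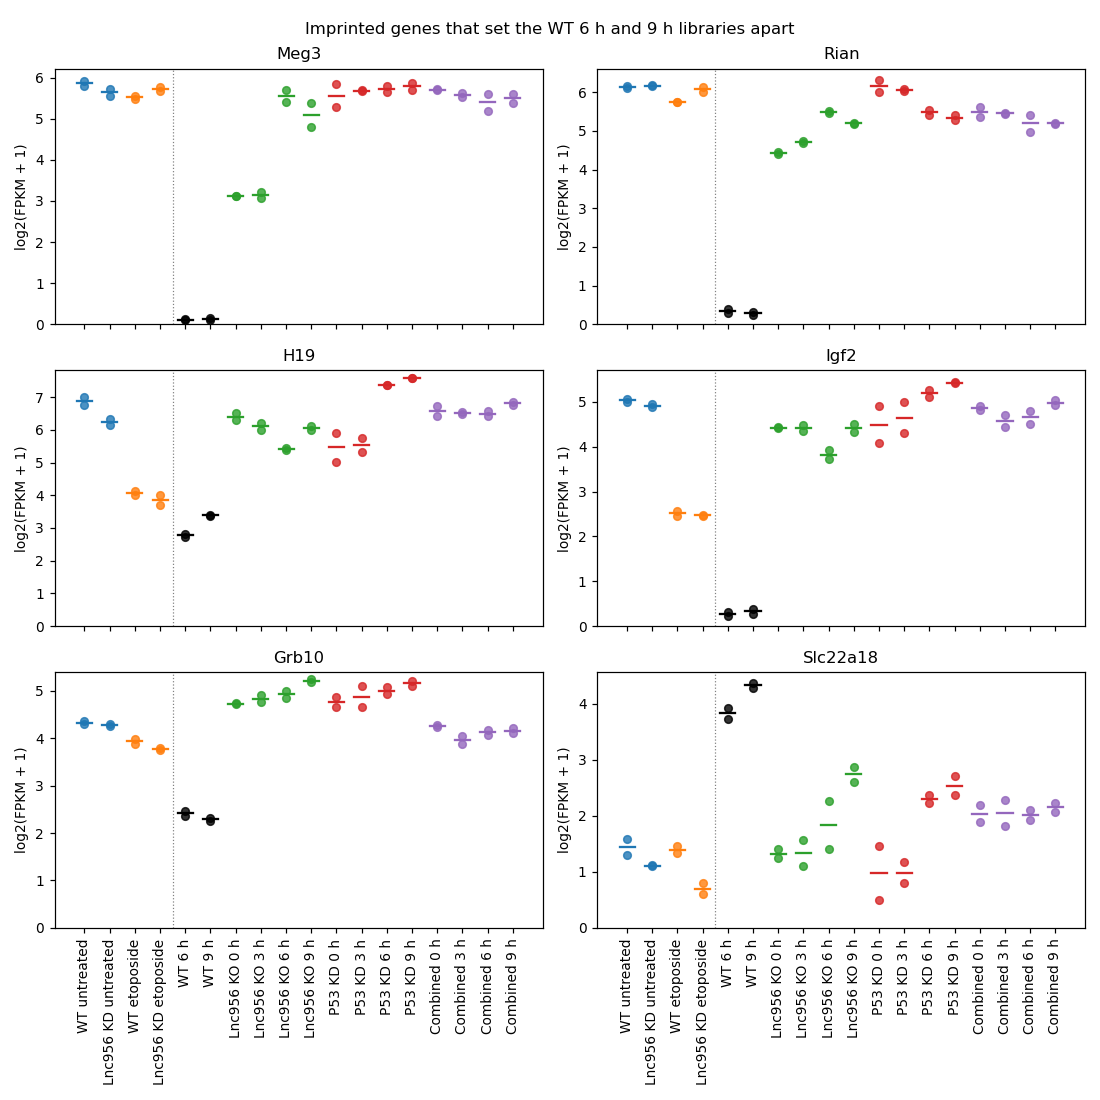
Level of Meg3, Rian, H19, Igf2, Grb10 and Slc22a18 in each RNA library, as log2(FPKM + 1) on the vertical axis and by group on the horizontal axis, with 1 dot a library. The 4 WT dots at 6 and 9 h are the lowest of the time course in every panel but that of Slc22a18, where they are the highest.

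In all, 20 of the 32 tested imprinted genes were higher and 5 lower in the Lnc956 knockout than in WT at 6 and 9 h, where 55.9% of all genes tested were called, 26.7% higher and 29.2% lower. For the P53 knockdown the counts were 18 higher and 5 lower, beside 34.4% and 29.6% of all genes (64.0% together), and for the combined line 17 higher and 9 lower, beside 33.4% and 38% (71.4% together). The share of imprinted genes called was 78.1%, 71.9% and 81.25%. The median log2 difference over the imprinted genes tested was 0.63, 0.55 and 0.52, and that over all genes tested -0.03, 0.04 and -0.04. Meg3, Rian, Mirg, Igf2, Dlk1, Magel2 and Airn were at 1 FPKM or more in none of the WT libraries and entered the test through the other lines. They are among the 32 tested, and counts and medians without them were not computed. The 3 comparisons share their 4 WT libraries, in which 20 or 21 of the 22 fibroblast genes were lower than in each line. The calls of Peg3 and Ppp1r9a in the knockout, of Zdbf2 in the P53 knockdown, and of Nnat, Cdkn1c and Peg10 in the combined line were lost when 1 library was left out or a setting was changed.

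**Figure D3:**
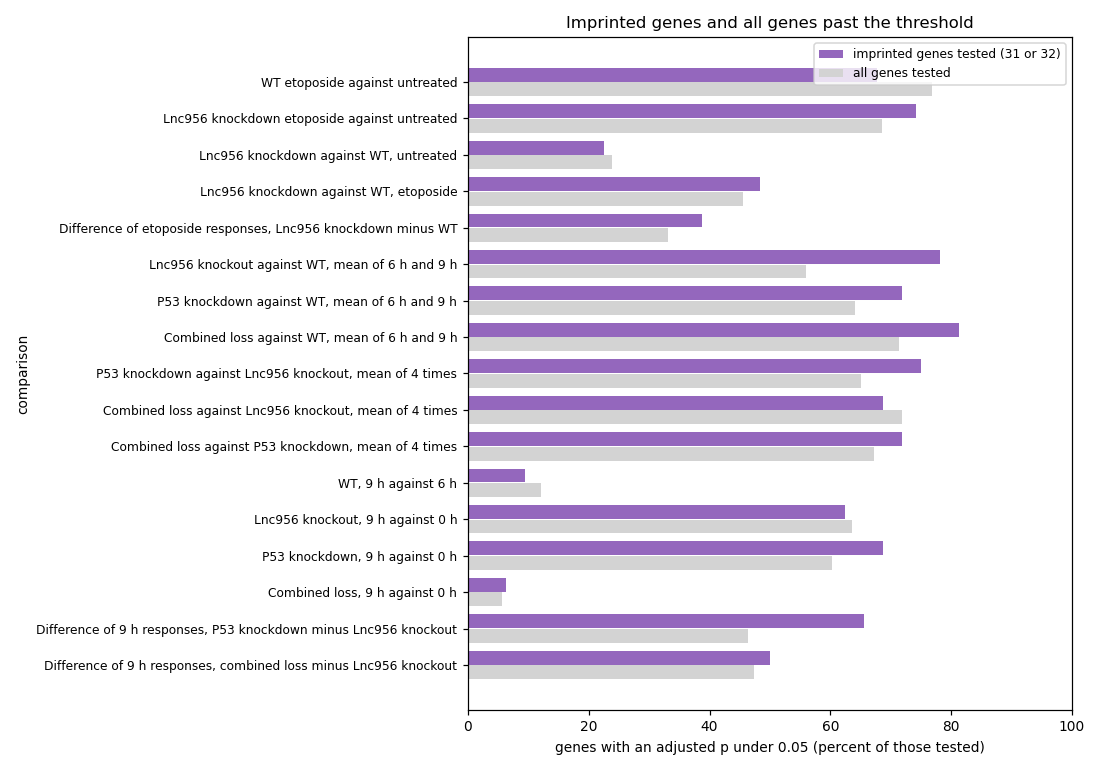
Percent of the tested imprinted genes and of all genes tested that were called by limma (adjusted p under 0.05, either direction), for 17 comparisons on the vertical axis. The imprinted genes lie above all genes in the 3 comparisons with WT (78.1% against 55.9% for the knockout). They also do so in others, such as the P53 knockdown against the knockout (75.0% against 65.0%) and the difference of their 9 h responses (65.6% against 46.4%). In WT treated against untreated the shares are 67.7% and 76.9%.

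Further loci differed among the 3 altered lines. Nnat, a small membrane protein of the developing brain, was at 34.7, 32.3, 29.5, 29.0, 22.0, 20.1, 26.0 and 31.5 FPKM over the 8 knockout libraries, and at 3.76 to 11.2 in the P53 knockdown and 5.34 to 6.44 in the combined line. The knockout did not overlap with either, and WT was at 6.98 to 10.3. The log2 differences from the knockout were -1.96 ± 0.08 for the P53 knockdown and -2.06 ± 0.08 for the combined line, and in the early and late libraries -2.53 and -1.40, and -2.25 and -1.87. Nnat lies in an intron of Blcap, and counting by strand is not stated, so reads of the pair cannot be told apart.

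Slc38a4, an amino acid transporter, and Sgce, epsilon-sarcoglycan, were higher in the combined line than in either single line. Slc38a4 was at 106 to 136 FPKM in the 8 combined libraries, 71.4 to 84.7 in the P53 knockdown and 35.1 to 56.5 in the knockout, with no overlap among the 3. Its log2 differences from the knockout were 0.68 ± 0.04 and 1.27 ± 0.04. Sgce was at 11.6 to 18.7 FPKM in the combined line, 6.95 to 13.8 in the P53 knockdown and 3.11 to 6.26 in the knockout, so the combined line and the P53 knockdown overlapped (0.56 ± 0.08 on the log2 scale). Igf2r, the receptor that clears IGF2, is classed as maternally expressed. It was at 17.15 to 26.3 FPKM in the combined line and at most 16.5 in the other time-course libraries. The log2 difference of the combined line was 0.72 ± 0.08 from the knockout and 0.64 ± 0.08 from the P53 knockdown. Airn, the paternal antisense RNA that silences Igf2r in cis, was at 2.25 FPKM or less in the time course, and reads in the stretch it shares with Igf2r cannot be assigned to a strand.

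The paternally expressed genes of the Snrpn locus were lower in the combined line than in the knockout. Snrpn, a splicing protein, was at 106, 108, 105, 99.5, 111, 87.4, 57.6 and 62.6 FPKM in the knockout from 0 to 9 h, with both 9 h libraries lowest, and at 46.9 to 57.3 in the combined line. WT was at 29.2, 29.4, 31.3 and 25.8, below every other time-course library. Ndn, a growth-restraining MAGE protein, was at 23.7 to 38 FPKM in the knockout, 12.4 to 18.2 in the combined line and 7.56 to 9.51 in WT. Snrpn and Ndn were lower in the combined line than in the knockout by log2 differences of -0.76 ± 0.06 and -0.86 ± 0.07. Magel2 and Mkrn3, their neighbours, reached at most 1.90 and 3.37 FPKM, and the difference of Mkrn3 from the knockout was -0.82 ± 0.09 in the combined line. Magel2 was at 1 FPKM or more in the late knockout libraries alone and entered the test through them, so its difference is not given. Snrpn shares its transcripts with Snurf and Snhg14, so its reads may be divided among them.

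Peg3, a zinc finger protein that acts on fetal growth and maternal care, was at 2.43, 3.00, 3.05 and 4.77 FPKM in the early and 12.8, 19.4, 13 and 9.37 in the late knockout libraries. WT was at 8.41, 8.91, 8.39 and 10.0, the P53 knockdown at 2.72 to 7.01 and the combined line at 1.80 to 4.07. At 6 and 9 h Peg3 was thus lower than WT in the P53 knockdown (-0.94 ± 0.21) and in the combined line (-1.39 ± 0.21). Its neighbours Usp29 and Zim1 were at most at 0.784 and 2.14 FPKM in any library. Peg10, a retrotransposon-derived placental gene divergent from Sgce, was at 48.3 to 78.6 FPKM in the knockout, 25.1 to 77.1 in the P53 knockdown, 15.9 to 48.7 in the combined line and 17.1 to 21.2 in WT. Asb4 and Ppp1r9a of the same locus reached at most 0.88 and 4.20 FPKM in the time course.

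Mest, a hydrolase-like growth gene, and Copg2, a coat protein gene that runs toward it, were high in the early P53 knockdown libraries alone. Mest was at 78.2, 68.6, 83.2 and 80.1 FPKM there and at 25.9, 20.5, 18.9 and 20.6 in the late ones, against 20.3 to 37.8 in the knockout, 17.8 to 26.6 in the combined line and 10.4 to 13.2 in WT. Copg2 was at 48.4, 53.3, 46.7 and 52.1 FPKM in the early P53 knockdown and at 25.6 or less in the 24 remaining time-course libraries. The same 4 libraries had the highest sum of Y-linked genes of the time course. Mest was higher in the P53 knockdown than in the knockout by 1.29 ± 0.09 in the early libraries and lower in the late ones (-0.40 ± 0.09, adjusted p = 0.0011), so its difference over 4 times, 0.45 ± 0.06, holds for neither set of times. Copg2 and Mest overlap at their ends, and their reads there cannot be told apart.

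Phlda2 was highest in the early knockout libraries, at 44.7, 50.5, 40.1 and 36.3 FPKM, against 21.7, 19.1, 14.0 and 15.9 in the late ones. It was at 4.64, 10.2, 2.13 and 6.06 in the early P53 knockdown. Impact, a regulator of translation through GCN2, was low in the same knockout libraries, at 15.5, 21.4, 23.2 and 24.6 FPKM against 40.0 to 88.8 in every other time-course library. Its log2 difference between the combined line and the knockout was 1.75 ± 0.15 in the early libraries and was not called in the late ones. Zdbf2, a paternally expressed zinc finger gene, was at 1.49, 1.48, 1.89 and 2.53 in the early knockout and 18, 12.8, 12.2 and 14.5 in the early P53 knockdown, a log2 difference of 2.43 ± 0.25.

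Over 4 times, 17 of 32 imprinted genes were higher and 7 lower in the P53 knockdown than in the knockout, beside 38.7% and 26.2% of all genes (65.0% together). In the early libraries the counts were 15 and 8 (65.3% of all genes) and in the late ones 9 and 7 (44.7%). Between the combined line and the knockout the counts were 11 and 11, beside 35.7% and 36.2% (71.9% together), with 15 and 9 in the early libraries (66.2%) and 6 and 13 in the late ones (62.1%). Between the combined line and the P53 knockdown they were 7 and 16, beside 25.5% and 41.7% (67.2% together), with 8 and 14 early (59.6%) and 4 and 14 late (57.1%). Against the knockout, Slc38a4, Sgce and Mirg were called higher and Nnat and Snrpn lower in the early and in the late libraries and for both lines. With quantile scaling the share of higher among all called genes went from 59.6% to 45.5% for the P53 knockdown against the knockout, where the imprinted genes split 17 and 9, and from 38% to 49.1% for the combined line against the P53 knockdown, where they split 7 and 13.

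**Figure D4:**
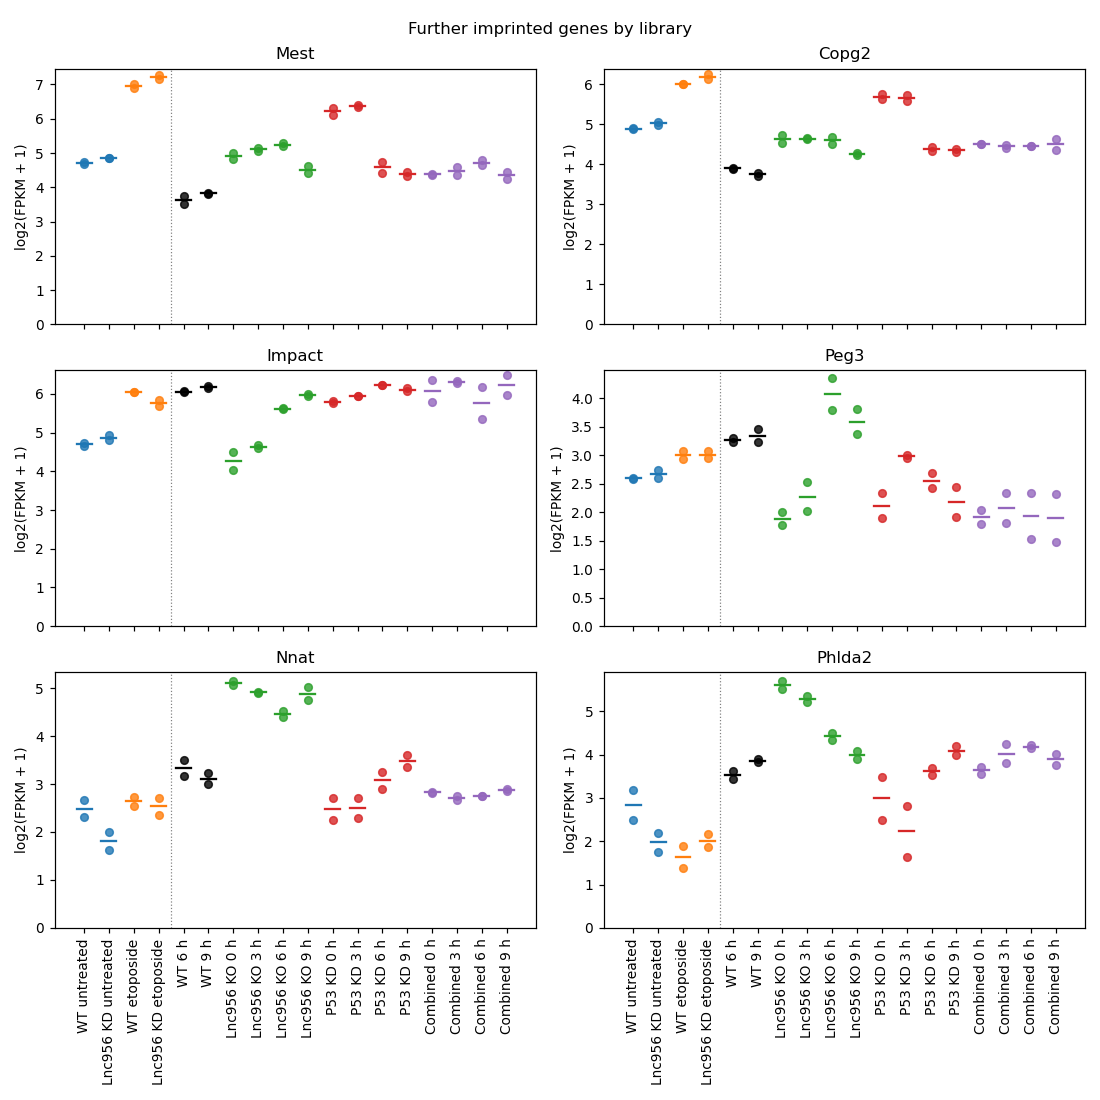
Level of Mest, Copg2, Impact, Peg3, Nnat and Phlda2 in each RNA library, as log2(FPKM + 1) on the vertical axis and by group on the horizontal axis, with 1 dot a library. Mest and Copg2 stand highest in the early P53 knockdown within the time course, and Impact and Peg3 are lower in the knockout at 0 and 3 h than at 6 and 9 h.

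In the etoposide libraries of the first set Mest and its neighbour Copg2 were higher, and H19 and Igf2 lower, than in the untreated ones, in WT and in Lnc956 knockdown cells. Mest was at 25.9 and 24.4 FPKM in untreated WT and 127 and 119 after etoposide, and at 28.0 and 27.8 against 142 and 154 in the knockdown. The treated and untreated libraries were far apart, with log2 differences of 2.25 ± 0.05 and 2.37 ± 0.05. Copg2 went from 28.5 and 29.0 to 63.0 and 63.3 FPKM in WT (1.11 ± 0.06) and from 32.6 and 30.8 to 68.9 and 76.2 in the knockdown (1.17 ± 0.06). H19 was at 128 and 108 FPKM in untreated WT and 16.4 and 15.2 after etoposide, and at 69.9 and 78.9 against 15.1 and 12.1 in the knockdown, with log2 differences of -2.82 ± 0.11 and -2.37 ± 0.11. Igf2 was at 32.7 and 30.9 FPKM against 4.96 and 4.46 in WT, and 28.5 and 30.0 against 4.49 and 4.61 in the knockdown, with -2.52 ± 0.07 and -2.45 ± 0.07.

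Impact rose from 25.5 and 24.4 to 65.7 and 65.4 FPKM in WT (1.36 ± 0.07) and from 29.8 and 26.9 to 50.3 and 56.0 in the knockdown (0.88 ± 0.07). Smaller rises in both backgrounds were those of Peg13 (0.78 and 0.75), Nap1l5 (0.46 and 0.59) and Peg3 (0.42 and 0.34). Airn was at 1.27 and 2.85 FPKM in untreated and 0.106 and 0.0482 in treated WT, and reached 1 FPKM in the untreated libraries alone, as did Plagl1, a zinc finger gene. Zim1 reached it in treated WT alone (1.54 and 2.14). Sgce (-0.92 and -0.73), Slc38a4 (-0.88 and -0.47), Gnas (-0.74 and -0.68) and Grb10 (-0.40 and -0.51) also fell in both backgrounds. Zim1, Airn and Plagl1 are among the genes counted, although the filter let them in only through libraries where they were high. In WT 8 of 31 imprinted genes rose and 13 fell, beside 39.3% and 37.6% of all genes (76.9% together), and in the knockdown 11 rose and 12 fell, beside 31.5% and 37.1% (68.6% together). These shares, 67.7% and 74.2%, lie near those of all genes. All 22 fibroblast genes fell in both backgrounds and Y-linked genes were higher in the treated libraries, and their part in these changes was not tested. The call of Snrpn in WT, and those of Zim1 and Igf2r in the knockdown, did not hold in every alternative.

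The etoposide changes differed between WT and the knockdown for 12 of the 31 genes, 7 with a higher and 5 with a lower response in the knockdown, beside 13.6% and 19.5% of all genes (33.1% together). With quantile scaling the split was 9 and 3, and the share of higher among all called genes 51.4% in place of 41.1%. Ppp1r9a, a neuronal actin-binding scaffold, fell in WT (3.46 and 3.75 to 2.43 and 2.71 FPKM) and rose in the knockdown (3.03 and 3.13 to 3.99 and 4.0), a difference of responses of 0.66 ± 0.11. Ndn was at 18.8 and 18.9 FPKM in untreated WT, 16.7 and 18.3 in treated WT, 21.7 and 21.1 in the untreated knockdown and 11.4 and 12.7 in the treated knockdown, a difference of responses of -0.68 ± 0.09. Slc38a4 fell less in the knockdown (0.41 ± 0.06) and Impact rose less (-0.48 ± 0.09). Meg3 and Rian fell in WT by log2 differences of -0.34 ± 0.07 and -0.39 ± 0.05 and did not pass the test in the knockdown, and their responses differed by 0.42 ± 0.10 and 0.29 ± 0.07.

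Between untreated Lnc956 knockdown and WT cells, 1 of 31 imprinted genes was higher and 6 were lower, beside 15.3% and 8.48% of all genes (23.8% together); with quantile scaling 0 were higher and 9 lower. Peg10 was at 12.8 and 16.1 FPKM in the knockdown and 30.4 and 26.9 in WT (-0.94 ± 0.10), and H19 at 69.9 and 78.9 against 128 and 108 (-0.66 ± 0.11). The other calls, Phlda2, Nnat, Cdkn1c, Sgce and Mirg, were lost in at least 1 alternative; without WT replicate 1 the number called fell from 7 to 3, and without knockdown replicate 1 to 2. In etoposide 8 were higher and 7 lower, beside 22.7% and 22.9% of all genes (45.6% together). Mirg was at 11.5 and 10.9 FPKM in the knockdown against 6.67 and 7.34 in WT (0.61 ± 0.11), and Slc22a18 was at 0.738 and 0.512 against 1.52 and 1.75 (-0.70 ± 0.12). Zim1, an imprinted zinc finger gene, was at 0.592 and 0.543 FPKM against 1.54 and 2.14, and entered the test only through treated WT. Zim1 and Slc22a18 are the 2 of the 37 that stand in the authors' deposited table of 1007 genes for treated knockdown against treated WT. The calls of Meg3, Snrpn, Copg2, Grb10 and Igf2r in this comparison were lost in at least 1 alternative.

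From 0 to 9 h, Inpp5f and Meg3 were higher and Phlda2 lower in the knockout, and H19 was higher and Mest lower in the P53 knockdown. These comparisons span the early and the late libraries. In the knockout 14 of 32 were higher and 6 lower at 9 h than at 0 h, beside 43.2% and 20.4% of all genes (63.6% together), but at 3 h against 0 h limma called 0 (2 of 32 had an unadjusted p under 0.05), beside 0.45% of all genes, and at 9 h against 6 h 9 were higher and 6 lower (29.2%). Inpp5f, a phosphoinositide phosphatase, was at 1.14 and 1.10 FPKM at 0 h, 1.92 and 1.88 at 3 h, 4.83 and 3.88 at 6 h and 7.57 and 7.24 at 9 h, and the log2 difference of 9 h from 0 h was 1.99 ± 0.14. Meg3 (1.97 ± 0.18), Peg3 (1.70 ± 0.30), Impact (1.70 ± 0.21) and Cdkn1c (1.41 ± 0.16) were also higher, and Phlda2 (-1.61 ± 0.28), Mirg (-1.07 ± 0.21) and Snrpn (-0.82 ± 0.12) lower. In the P53 knockdown 12 were higher and 10 lower at 9 h than at 0 h (39.3% and 20.9% of all genes, 60.2% together), against 1 and 1 at 3 h (5.18%) and 1 and 1 at 9 h against 6 h (8.15%). There H19 (2.11 ± 0.19) and Cdkn1c (2.04 ± 0.16) were higher at 9 h and Mest (-1.84 ± 0.12) and Ppp1r9a (-1.66 ± 0.15) lower; Cdkn1c was at 2.27 and 2.07 FPKM at 0 h and 13.4 and 10.8 at 9 h. Phlda2 was no longer called there without P53 knockdown 0 h replicate 1 (0.60, adjusted p = 0.086, against 1.10 ± 0.28 with it). Quantile scaling moved the median log2 difference of all genes from 0.27 to -0.01 in the knockout and from 0.20 to -0.01 in the P53 knockdown. The share of higher among all called genes went from 67.9% to 49.3% and from 65.3% to 49.6%, and the imprinted genes split 13 and 8, and 11 and 10.

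In the combined line the early and late libraries overlapped in the sums of Y-linked and fibroblast genes. They did not overlap in those of neural (38 to 47.15 against 48.2 to 72 FPKM) and mesoderm markers (1.395 to 1.92 against 2.37 to 2.745). This line was nearly flat: 2 of 32 genes were lower at 9 h than at 0 h, Mirg (-0.87 ± 0.21) and Peg10 (-0.79 ± 0.22), beside 2.43% of all genes higher and 3.2% lower (5.62% together). With any 1 of its 4 libraries left out, 0 or 1 gene was called. In WT 3 genes were called between 6 and 9 h, H19 (0.61 ± 0.19), Sgce (0.56 ± 0.17) and Gnas (-0.46 ± 0.11), beside 7.61% of all genes higher and 4.48% lower (12.1% together). With any 1 of its 4 libraries left out 0 or 1 gene was called, and with quantile scaling 0 were higher and 1 lower (all genes called went from 62.9% to 46.3% higher). The 9 h response of the P53 knockdown differed from that of the knockout for 21 genes, 8 higher and 13 lower (20.7% and 25.7% of all genes, 46.4% together), and that of the combined line for 16, 4 higher and 12 lower (15.5% and 31.9%, 47.4% together). For the latter, quantile scaling moved the median of all genes from -0.22 to 0.02 and the share of higher among all called genes from 32.7% to 52.4%, and the imprinted genes split 4 and 10. Both responses subtract the same knockout libraries. The largest were Phlda2 (2.71 ± 0.40), H19 (2.46 ± 0.27) and Zdbf2 (-2.31 ± 0.50) for the P53 knockdown, and Meg3 (-2.18 ± 0.25), Inpp5f (-2.01 ± 0.20) and Phlda2 (1.86 ± 0.40) for the combined line. Each spans early and late libraries that stand apart, and treatment and library set cannot be told apart there.

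A list of 23 regulators of imprints (DNA methyltransferases, TET dioxygenases, ZFP57 and its partners), 22 of them tested, was read beside the imprinted genes. Dnmt3l, the cofactor needed to set imprints in germ cells, was at 17.9 to 31 FPKM in WT at 6 and 9 h and at 87.1 to 514 in the 24 other time-course libraries, and its log2 differences were 3.71 ± 0.07, 2.89 ± 0.07 and 2.25 ± 0.07 for the knockout, P53 knockdown and combined line. Dppa3, which protects imprints in the zygote, was at 0.105 to 0.832 FPKM in WT and 7.40 to 23.7 in the others (3.45 ± 0.16, 2.76 ± 0.16 and 3.24 ± 0.16). Dppa3 thus reached 1 FPKM in none of these WT libraries and entered the test only through the other lines. Counts without it were not computed. Zfp57 was lower in the knockout and the P53 knockdown than in WT (-0.61 ± 0.06 and -0.66 ± 0.06). Of the 22, 7 were higher and 5 lower in the knockout than in WT, 4 and 7 in the P53 knockdown, and 8 and 7 in the combined line, beside 55.9%, 64.0% and 71.4% of all genes called. With etoposide 8 rose and 7 fell in WT (76.9% of all genes called) and 12 rose and 7 fell in the knockdown (68.6%). Dnmt3a, a de novo methyltransferase, was higher in the treated knockdown than in treated WT by 0.93 ± 0.05. The median log2 difference of the list lay between -0.14 and 0.12 in the 3 comparisons with WT.

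Of the 37 imprinted genes, 24 had a KLF4 site within 10 kb of the gene body in untreated WT cells (64.9%, against 84.2% of 13587 genes), a site being a peak found in both libraries. The 13587, called all genes for sites, are those with a position that passed the 1 FPKM filter in either set, and the 37. Rtl1, Usp29, Asb4, Kcnq1ot1 and Rasgrf1 are counted among the 37 although they fell below that filter. After etoposide 10 had one (27.0%, against 37.5%). In the Lnc956 knockout the numbers were 25 and 19 (67.6% and 51.4%, against 77.1% and 73.9% of all genes), with full-length Lnc956 24 and 14 (64.9% and 37.8%, against 79.9% and 62.8%), and with the deleted form 23 and 22 (62.2% and 59.5%, against 80.4% and 76.9%). The number of KLF4 peaks in WT was 30590 and 27294 untreated and 6943 and 5691 treated. The peak lists hold no counts, so no test was made, and a fold is the authors' value over control at the peak.

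Over all KLF4 groups, the highest KLF4 peak near an imprinted gene lay over the shared Peg3 and Usp29 start. It was at chr7:6727286-6730615 in untreated WT and overlaps part of the printed Peg3 window. Its fold over control was 56.1 and 61.3 in the 2 untreated and 42.7 and 42.7 in the 2 treated WT libraries, 90.5 and 77.1 against 62.8 and 62.7 in the knockout, 111 and 115 against 68.5 and 65.4 with full-length Lnc956, and 79.6 and 83.5 against 93.5 and 98.3 with the deleted form. The treated value was below the untreated one in all but the last background. P53 had a site within the span of the untreated WT KLF4 peak in all 4 of its groups. These P53 sites did not reach the printed Peg3 window. Their folds were 9.44 and 10.8 in untreated and 11.7 and 14.0 in treated WT, and 7.42 and 8.59 against 12.5 and 13 in the knockdown. Impact had a KLF4 site outside its annotated body, at chr18:12946941-12948542 in untreated WT. Its folds in WT were 58.7 and 53.5 untreated, the first above that of Peg3 in the same library, and 9.26 and 12.5 treated. With the deleted form they were 35.6 and 36.0 against 39.8 and 39.4. The site at the Copg2 start (chr6:30896062-30897262) went from 33.1 and 24.4 to 16.3 and 14.5 in WT. Within Ppp1r9a, chr6:4923746-4924223 held a KLF4 site in untreated WT (33.7 and 32.2) and a P53 site in all 4 P53 groups, at 22.0 and 29.7 in untreated and 23.8 and 23.5 in treated WT.

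Among sites singled out after their values were seen, the printed Mest window lay under a KLF4 peak in all 8 groups, at 9.09 and 7.86 in untreated and 8.86 and 9.40 in treated WT and 24.1 and 17.1 in the untreated knockout. The Meg3 site in all 8 groups lay downstream of the start, at chr12:109542940-109543237 in untreated WT (7.52 and 7.08); the printed window itself was overlapped in both libraries only with full-length Lnc956 untreated (4.52 and 5.19) and with the deleted form treated (5.5 and 5.46). Cdkn1c had sites in untreated WT (26.5 and 25.2) and none in treated WT, and had 1 or more in the 6 other KLF4 groups. H19 had no site in any group, and Igf2 had KLF4 sites only in untreated WT and in the untreated cells of both rescues. P53 sites lay near 3 of 37 genes in untreated WT and in the untreated knockdown (8.11%, against 1.91% and 1.42% of all genes), which are Peg3, Usp29 and Ppp1r9a, the first 2 by the same site. After etoposide they lay near 9 in WT and 8 in the knockdown (24.3% and 21.6%, against 25.5% and 22.2%).

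**Figure D5:**
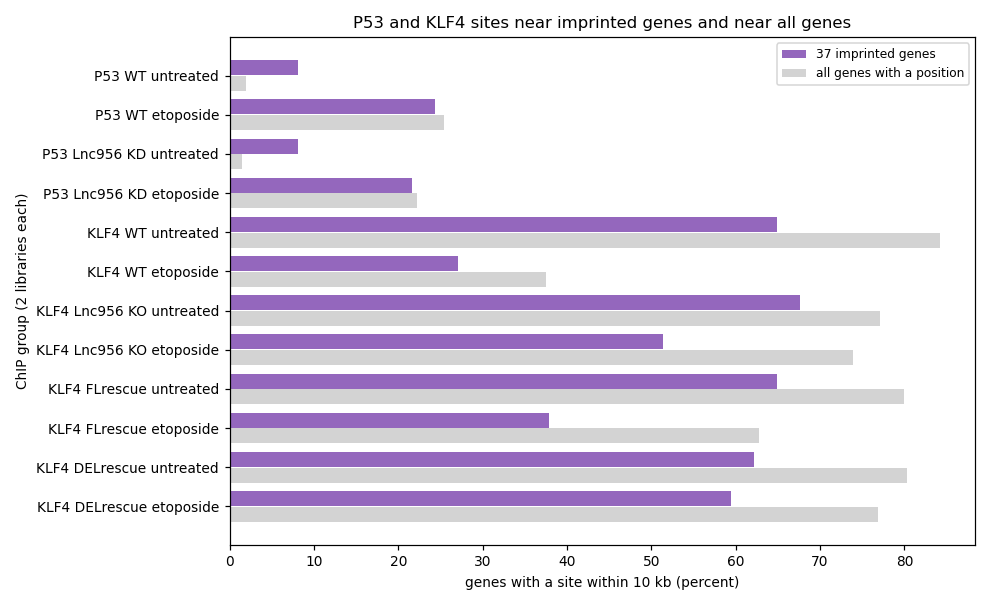
Percent of the 37 imprinted genes and of 13587 genes with a P53 or KLF4 site within 10 kb of the gene body, by ChIP group. The 13587 are genes that passed the 1 FPKM filter in either set, and the 37, of which some did not pass it. For KLF4 the imprinted genes lie below all genes in every group (64.9% against 84.2% in untreated WT), and for P53 the 2 are close in treated WT (24.3% against 25.5%).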

How the data were processed

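FPKM values per gene and library were deposited by the authors in 2 tables, a first set of 8 libraries and a time course of 28. The submitters' processing notes name TopHat2 2.0.8, Cufflinks 2.1.1, Cuffdiff 2.1.1, Bowtie2 2.1.0, MACS2 2.2.7.1, CASAVA 2.19 and the mm10 build, without roles. Neither scaling between libraries nor the use of strand in counting is stated there. The peak lists deposited by the authors, called per library against an input per the peak names in the files, give a score, a fold (ratio) over control and a −log10 q-value for each peak; the score was not used. Depth is unknown, since FPKM holds no read total.

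Of the symbols in the first set, 280 had more than 1 row: 140 repeated the same values and entered once, while 140 had conflicting values and were dropped, leaving 24206. In the time course 4 columns of no labelled sample, headed as WT at 0 and 3 h, were not used, and the columns of the combined line were mapped by elimination, since their name differs from the labels. Within each table all groups entered 1 limma model (limma 3.58.1 in R 4.3.3) on log2(FPKM + 1), with a variance trend and Benjamini-Hochberg adjustment over the 12733 and 14223 genes at 1 FPKM or more in at least 2 libraries, called at an adjusted p of 0.05. Fold changes on this scale understate the change of low genes. On simulated data with 200 changed genes the test recovered 97% of those changed by a log2 of 1 and 66% of those changed by 0.5 in the first set, with 8 false calls, and 88% and 27% with 10 false calls in the time course. The simulated noise was independent between libraries, and far fewer genes changed than were called in most comparisons. It held no difference between sets of libraries, so the false calls do not cover such differences. Fits within the early (0 and 3 h) and late (6 and 9 h) libraries were added after the data were seen.

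A ChIP site was a peak overlapping by at least 1 bp between both libraries of a group, and lay near a gene within 10 kb of its body. Gene positions, promoter windows and symbols are RefSeq's on GRCm38.p6. The members and lists were chosen with earlier results of these data known. The text could name up to 8 rises and 8 falls with the largest change per comparison, a fixed set of best-known imprinted genes, the members of their loci, and up to 4 genes of each other list. The alternatives were a pseudocount of 0.1, no filter, a mean of 1 FPKM or more, quantile scaling, a replicate block, summed rows, the 4 libraries labelled 10 µM left out, and each library left out; for sites, a 2 kb window, a −log10 q of 5, another overlap and each library alone. Python 3.11.15 with pandas 2.3.3 was used for tables.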

Additional observations from a re-analysis of the deposited data

Results flagged for a closer look

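In 3 comparisons of responses, named imprinted genes responded differently in 2 lines by limma's test of the difference itself (adjusted p under 0.05 over all genes tested); the values are differences of log2 differences. The etoposide response in the first set was higher in the Lnc956 knockdown than in WT for Phlda2 (1.23), Peg10 (0.70), Ppp1r9a (0.66), Meg3 (0.42), Slc38a4 (0.41), Rian (0.29) and Snrpn (0.24), and lower for Ndn (-0.68), Zim1 (-0.62), Impact (-0.48), Inpp5f (-0.46) and Igf2r (-0.25). Zim1 entered this test only through treated WT, where it was high. For this comparison 33.1% of all genes tested were called.

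The response from 0 to 9 h was higher in the P53 knockdown than in the Lnc956 knockout for Phlda2 (2.71), H19 (2.46), Nnat (1.22), Igf2 (0.94), Ndn (0.79), Cdkn1c (0.63), Gnas (0.44) and Slc38a4 (0.32), and lower for Zdbf2 (-2.31), Meg3 (-1.74), Peg3 (-1.63), Rian (-1.59), Ppp1r9a (-1.46), Mest (-1.45), Inpp5f (-1.39), Impact (-1.38) and Peg10 (-0.97). For the combined line against the same knockout libraries it was higher for Phlda2 (1.86), Snrpn (0.84), Slc38a4 (0.43) and Copg2 (0.38), and lower for Meg3 (-2.18), Inpp5f (-2.01), Peg3 (-1.72), Impact (-1.55), Cdkn1c (-1.42), Slc22a18 (-1.31), Zim1 (-1.14), Rian (-1.07), Dlk1 (-0.90) and Grb10 (-0.59). Over all genes 46.4% and 47.4% were called. Both compare early with late libraries. Y-linked genes set these apart in the knockout and in the P53 knockdown, and fibroblast genes in the P53 knockdown (838 to 1361 FPKM early, 1824 to 2040 late). Trophectoderm markers were also apart, at 29.1 to 36.3 against 84.4 to 127 FPKM in the knockout and 88.7 to 175 against 212 to 265 in the P53 knockdown, and their part in the values was not tested. From 3 h against 0 h, limma called 0 imprinted genes in either comparison (3 and 3 of 32 with an unadjusted p under 0.05). The calls of Zim1, Phlda2, Igf2r and Snrpn in the first comparison, of Gnas, Slc38a4, Cdkn1c, Igf2 and Peg10 in the second and of Copg2, Slc38a4, Slc22a18 and Dlk1 in the third were lost under at least 1 alternative.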

How the results depend on the processing

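Of the named imprinted genes, 239 of 249 calls held with no filter on low values, 245 with a pseudocount of 0.1, 231 with quantile scaling, 249 with rows of a symbol summed, 234 of 235 with a mean of 1 FPKM or more and 171 of 178 without the 4 libraries labelled 10 µM. With 1 library left out, 1904 of 2030 calls held and none changed sign. The replicate numbers were not taken as pairs, since not every pair of groups correlated above 0.1: the deviations of same-numbered libraries correlated between -0.16 and 0.089 over the 6 pairs of groups in the first set and between -0.55 and 0.51 over the 91 in the time course, 18 of them above 0.1. With the replicate block 247 of 249 calls held, Snrpn (adjusted p = 0.068) and Grb10 (0.053) of treated knockdown against WT being lost; the block counts of imprinted genes were 7 for untreated knockdown against WT, 3 for WT at 9 h against 6 h and 2 for the combined line at 9 h against 0 h, with 2812, 1655 and 748 of all genes.

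Left-out libraries moved 3 counts by over 1.5 times. For untreated knockdown against WT, 2 to 8 imprinted genes were called in place of 7, and 869 to 2313 of all genes in place of 3032. For WT at 9 h against 6 h the ranges were 0 to 1 in place of 3 and 612 to 682 in place of 1719, and for the combined line at 9 h against 0 h 0 to 1 in place of 2 and 317 to 439 in place of 800. With no filter 4 were called in the first of these. With quantile scaling 1 was called in the second and 1 in the third, where a pseudocount of 0.1 gave 1 and leaving out the libraries labelled 10 µM gave 0 (249 of all genes). The causes were not tested.

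Within the early (0 and 3 h) and late (6 and 9 h) libraries, an alternative chosen after seeing the data, 3 h against 0 h gave 0 imprinted genes in the knockout (64 of all genes; 2 with an unadjusted p under 0.05), 2 in the P53 knockdown (737) and 0 in the combined line (0; 2 unadjusted), and 9 h against 6 h gave 4148 of all genes in the knockout, 2 imprinted genes in the P53 knockdown (1159) and 1 in the combined line (1649). The differences of responses gave 0 (42 of all genes) and 0 (15) from 0 to 3 h, and 1 (668) and 3 (2121) from 6 to 9 h, for the P53 knockdown and the combined line against the knockout. Reversed against the mean of 4 times were, for the P53 knockdown against the knockout, Peg3 (0.47, adjusted p = 0.061) and H19 (-0.76, 5.79e-05) in the early and Ndn (0.027, 0.853) and Mest (-0.40, 0.00106) in the late libraries. Zdbf2 (-0.086, 0.782) reversed for the combined line against the knockout, and Cdkn1c (-0.20, 0.131), Slc22a18 (-0.34, 0.152) and Mest (0.047, 0.666) for the combined line against the P53 knockdown, all in the late libraries. A −log10 q of 5 or more left 5 of the 9 imprinted genes with a P53 site in treated WT. All other site counts stayed within 1.5 times. Read depth is unknown, so a level near 0 has no counting interval.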

Other observations

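A list of 47 further imprinted genes, outside the 37, of which 37 were tested in the time course, also differed from WT at 6 and 9 h. In the knockout 18 were higher and 9 lower, in the P53 knockdown 21 and 8, and in the combined line 21 and 8, beside 55.9%, 64.0% and 71.4% of all genes called in either direction. Tfpi2, a placental protease inhibitor of the Peg10 region, was at 0 to 0.0459 FPKM in WT and 2.44 to 29.5 in the 24 other libraries of the time course, with log2 differences of 4.41 ± 0.17, 4.68 ± 0.17 and 2.28 ± 0.17. Tfpi2 reached 1 FPKM in none of these WT libraries and entered the test only through the other lines. Counts without such genes were not computed. Dcn, decorin, is both imprinted in the placenta and abundant in fibroblasts. It was at 0 to 0.0372 FPKM in WT at 6 and 9 h, 7.25 to 83.2 in the other lines, and in the first set 85.9 to 93.1 untreated and 5.03 to 6.15 after etoposide. Ascl2, a trophoblast factor of the Kcnq1ot1 domain, was lower in the combined line than in WT by a log2 difference of -3.26 ± 0.16. With etoposide in the first set 11 of 36 rose and 18 fell in WT, and 11 rose and 19 fell in the knockdown, beside 39.3% of all genes higher and 37.6% lower in WT and 31.5% and 37.1% in the knockdown.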
